A study of Homo sapiens with 18 samples.

Results

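HBE1 (RefSeq transcript NM_005330) encodes epsilon-globin, the beta-like chain of embryonic haemoglobin. It was followed as 1 of 24395 genes across all 18 libraries of an RNA-seq series on K562 cells, a human erythroleukaemia line. The gene was found by mapping transcript accessions to symbols and summing counts, and 1 accession mapped to it. K562 cells were given lentivirus carrying dCas9, a Cas9 that binds DNA without cutting it, as such or joined to KRAB, a domain that represses transcription, and in most groups a guide RNA (gRNA) to the HS2 globin enhancer. The series asks how such a repressor, placed at a distal enhancer, changes expression at its target and elsewhere.

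There were 6 groups of 3 libraries. KRAB_no_gRNA cells carried dCas9-KRAB and no gRNA. KRAB_CR4 and KRAB_CR10 cells carried dCas9-KRAB with the gRNA CR4 or CR10. dCas9_CR4 and dCas9_CR10 cells carried dCas9 lacking KRAB with the same gRNAs, and no_lentivirus cells were not transduced. The lentiviral cells also shared 4 µg/ml polybrene at transduction and puromycin selection at 1 µg/ml from 96 h. A group with dCas9 and no gRNA was not analysed here, so a dCas9 group differs from KRAB_no_gRNA in both the KRAB domain and the gRNA. The design text gives the lentiviral groups as triplicates and says nothing on how the untransduced libraries were grown, so p-values measure the spread between these libraries, which may be partly technical.

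The beta-like globin genes lie in a row on chromosome 11 and are switched during development, from epsilon in the embryo to gamma in the fetus and then to delta and beta in the adult. A locus control region of several hypersensitive sites, HS2 among them, lies beyond the embryonic end of the row and contacts the gene that is active. HBE1 is the globin gene closest to it, with HBG2 and HBG1 (gamma-globin) next, then HBBP1 (a pseudogene), HBD (delta-globin) and HBB (beta-globin). Epsilon-globin pairs with alpha-like chains encoded on chromosome 16, zeta-globin (HBZ) in the embryo and alpha-globin (HBA1, HBA2) later. KRAB domains recruit TRIM28, which brings SETDB1 and other silencing enzymes. K562 cells are known for expressing embryonic and fetal globins and hardly any HBB.

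Library totals ran from 22805964 to 34032962 counts, and 14713 genes entered the tests. Every deposited count was even, which was read as 2 counts per fragment, a step that no label states. All 14 K562 and erythroid markers were detected, among them the transferrin receptor TFRC, at a median of 1134 CPM (counts scaled to the library size by TMM and given in CPM). Of the megakaryocyte markers 2 of 5 passed the filter on low counts, ITGA2B at 2.58 to 24.7 CPM and GP1BA at up to 1.27 CPM, and GP9 had 0 counts in every library. Of the lymphoid and myeloid markers 4 of 6 passed it, with PTPRC at 64.6 to 344 CPM and the others at up to 2.23 CPM. Of the epithelial, liver and fibroblast markers 4 of 5 passed it, the highest being the keratin KRT18, at a median of 384 CPM. Lentiviral libraries numbered 3 stood apart from those numbered 1 and 2, and not in their globin levels alone, which are described below. On the main axis of variation of the most variable genes (52.3% of their variance) they lay at 8.53 to 24.2. Lentiviral libraries numbered 1 and 2 lay at -22.2 to -10.0 on it, and no_lentivirus library 2 lay furthest out, at 51.3. No_lentivirus libraries 1 and 3 lay at 3.38 and 19.7, the latter within the range of the lentiviral libraries numbered 3. The cause was not tested. Ribosomal RNA was highest in KRAB_CR4 library 2 (4.02%) and in KRAB_CR10 library 1 (3.52%), which also had the highest HBE1 of their groups, and values without them are given below.

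HBE1 was abundant in untransduced cells and was lowest where KRAB and a gRNA were combined. Its raw count ran from 1292 in KRAB_CR4 library 1 to 22094 in no_lentivirus library 1. In no_lentivirus libraries 1, 2 and 3 the level was 670, 546 and 595 CPM, and in KRAB_no_gRNA it was 437, 468 and 467 CPM. All 3 untransduced libraries lay above all 3 with KRAB and no gRNA. In dCas9_CR10 the libraries read 332, 425 and 386 CPM, and in dCas9_CR4 they read 329, 402 and 346 CPM. These ranges overlapped each other and lay below every KRAB_no_gRNA library. In KRAB_CR10 the level was 95.1, 86.4 and 73.3 CPM, and in KRAB_CR4 it was 55.8, 68.1 and 60.7 CPM. The gap between the dCas9 libraries and those with KRAB and a gRNA was wide: the lowest of the former read 329 CPM and the highest of the latter 95.1 CPM.

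**Figure D1:**
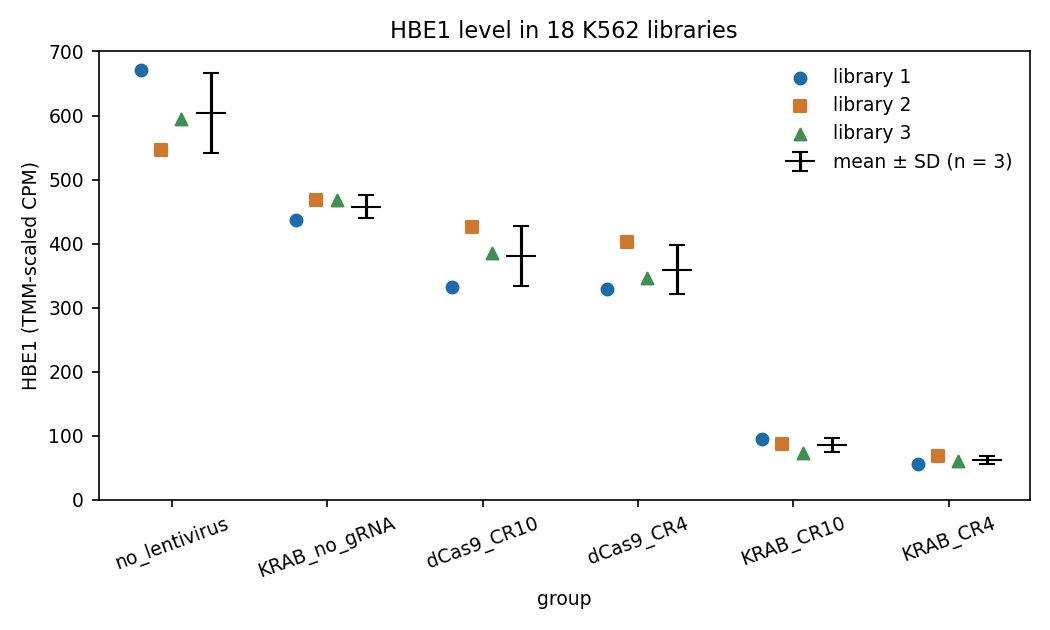
HBE1 level (TMM-scaled CPM) in each of the 18 libraries, by group. Points are libraries, with a marker shape for each library number, and bars are the mean ± SD of 3. KRAB_CR4 and KRAB_CR10 lie between 55.8 and 95.1 CPM, below the 329 to 670 CPM of all other libraries.

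The order of the group means was no_lentivirus (604 ± 62.5 CPM), KRAB_no_gRNA (457 ± 17.8), dCas9_CR10 (381 ± 46.8), dCas9_CR4 (359 ± 38.2), KRAB_CR10 (85.0 ± 10.96) and KRAB_CR4 (61.6 ± 6.20), each with the SD over 3 libraries. Of the neighbours in this order, only dCas9_CR4 and KRAB_CR10 were apart in the edgeR quasi-likelihood test, by 4.23-fold (Benjamini-Hochberg adjusted p = 3.03e-07). The other 4 neighbouring pairs did not pass, with values given below. Libraries of a group differed by a coefficient of variation of 3.89% to 12.9%, against 1.02% to 3.73% from counting alone. The group accounted for 99.1% of the variance of log2(CPM + 1) for HBE1 over the 18 libraries, against 95.5% for HBG2, 94.0% for HBG1, 43.0% for HBZ and 34.8% for HBA1.

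With either gRNA, HBE1 fell in cells carrying dCas9-KRAB. KRAB_CR4 held 13.5% of the KRAB_no_gRNA level (95% interval 10.9 to 16.6%), and KRAB_CR10 held 18.6% (15.1 to 22.9%). The log2 fold changes were -2.89 ± 0.14 and -2.43 ± 0.14 (SE), with edgeR adjusted p of 2.36e-09 and 3.00e-08. The background was small: 0.0204% of genes tested, which is 3 genes, were called lower in each of these comparisons, and 0% were called higher. The 3 were HBE1 and the gamma-globin genes HBG2 and HBG1. In a fit of the 15 lentiviral libraries that blocks on library number, 6 and 7 genes were called in either direction. In bulk RNA, fewer cells expressing HBE1 and less HBE1 RNA per cell cannot be told apart.

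Against dCas9 with the same gRNA, the groups that differ in the KRAB domain, HBE1 fell again. KRAB_CR4 held 17.2% of the dCas9_CR4 level (13.9 to 21.2%), and KRAB_CR10 held 22.3% of the dCas9_CR10 level (18.1 to 27.4%). The log2 fold changes were -2.54 ± 0.14 and -2.17 ± 0.14 (SE; edgeR adjusted p = 1.56e-08 and 1.66e-07), beside 0.0204% of genes called lower in each. The block gave 8 and 7 calls here. Averaged over both gRNAs, HBE1 was 5.11-fold lower with KRAB, 73.3 ± 15.1 against 370 ± 40.0 CPM (SD, n = 6 and 6; edgeR adjusted p = 1.59e-10), again beside 0.0204% of genes called lower and 0.0068% called higher (4 genes in all, and 14 with the block). Comparisons against a common group share its libraries and are not independent of each other.

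**Figure D2:**
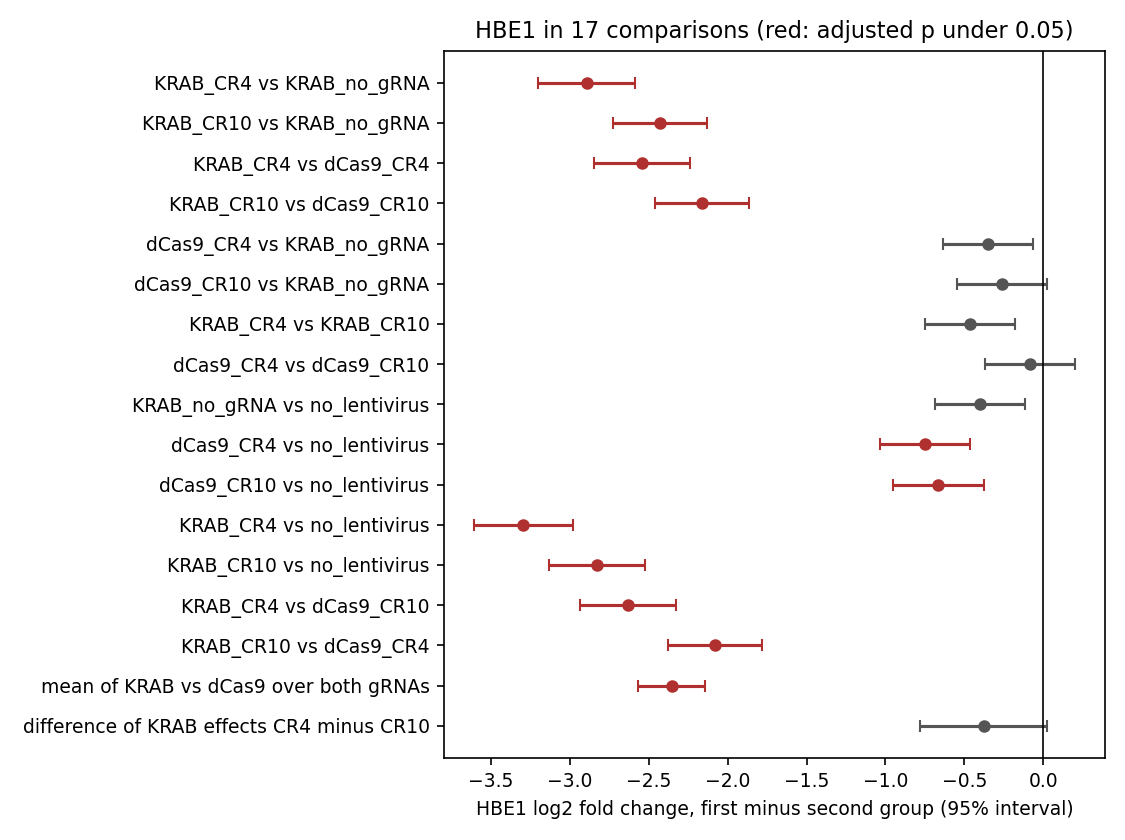
Log2 fold change of HBE1 with its 95% interval in the comparisons between groups, with called comparisons in red and the others in grey. The comparisons of KRAB and a gRNA with groups lacking that combination lie between -3.29 and -2.08, and the others lie between -0.75 and -0.09.

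The shares were also taken between libraries of the same number. KRAB_CR4 held 12.8%, 14.6% and 13% of KRAB_no_gRNA for numbers 1, 2 and 3, and 17%, 17% and 17.6% of dCas9_CR4. KRAB_CR10 held 21.8%, 18.5% and 15.7% of KRAB_no_gRNA, and 28.6%, 20.3% and 19.0% of dCas9_CR10. In all 12 pairs the library with KRAB and a gRNA held between 12.8% and 28.6% of its partner. The CR4 shares varied less between numbers than the CR10 shares did. Without KRAB_CR4 library 2, which was rich in ribosomal RNA, the log2 fold change against KRAB_no_gRNA was -2.97, and without KRAB_CR10 library 1 it was -2.51, each larger than with all libraries.

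**Figure D3:**
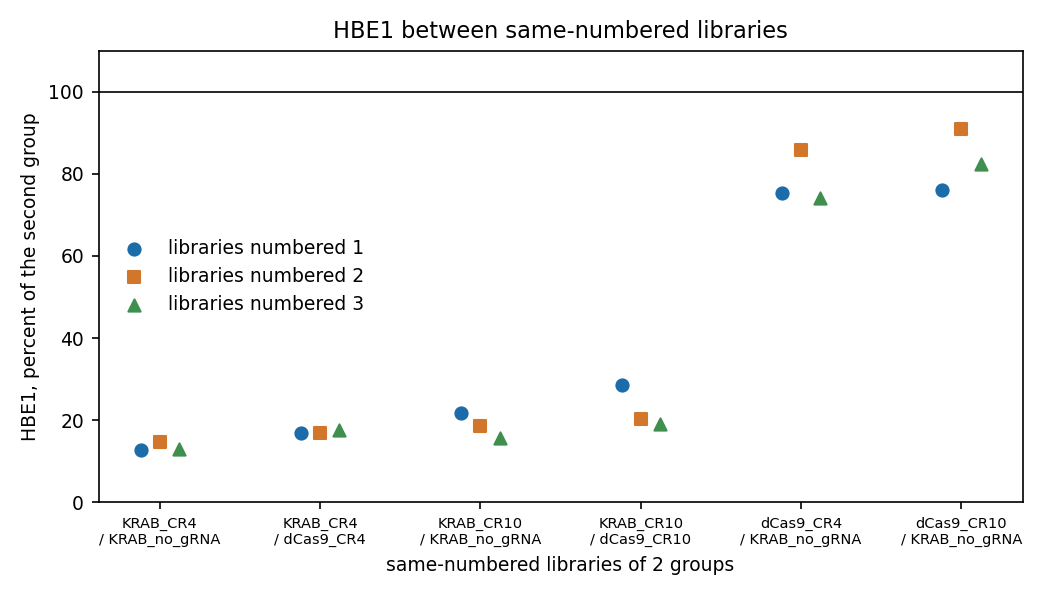
HBE1 in the first group as a percentage of the second, for libraries with the same number, over pairs of lentiviral groups. The 12 values for KRAB with a gRNA against KRAB_no_gRNA or dCas9 lie between 12.8% and 28.6%, and the line marks 100%.

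HBE1 was next compared between the gRNAs. KRAB_CR4 held 72.5% of the KRAB_CR10 level (95% interval 59.4 to 88.5%), and the libraries did not overlap. The difference did not pass over all genes (log2 fold change -0.46 ± 0.13, SE; unadjusted p = 0.00262, edgeR adjusted p = 1), where 0% of genes were called in either direction and 132 had an unadjusted p under 0.05. DESeq2 also called 0 genes. The 132 genes are a smaller fraction of the 14713 tested than the 0.05 that this cut gives without differences. The main fit leaves out the library numbers and is cautious here, so not passing is weak evidence of equal levels. Over the alternatives, a replicate block among them, 0 genes were called, and the lowest edgeR adjusted p of HBE1 was 0.382. By number KRAB_CR4 held 58.7%, 78.9% and 82.8% of KRAB_CR10. For dCas9 the share was 94.2% (77.3 to 115%; log2 fold change -0.09 ± 0.13, SE), with overlapping libraries, an edgeR adjusted p of 1 and 0% of genes called. The KRAB effect on the log2 scale was 0.38 more negative with CR4 than with CR10 (95% interval -0.78 to 0.03), which did not pass (unadjusted p = 0.0571, edgeR adjusted p = 1).

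The dCas9 groups were compared with KRAB_no_gRNA. For HBE1, dCas9_CR4 held 78.5% of its level (64.4 to 95.6%) and dCas9_CR10 held 83.3% (68.4 to 101%), and in both comparisons the libraries did not overlap. Neither passed over all genes (log2 fold changes -0.35 ± 0.13 and -0.26 ± 0.13, SE; edgeR adjusted p = 1 for both), and 0% of genes were called. In the edgeR fit 66 genes had an unadjusted p under 0.05 with CR4, with HBE1 among them, and 175 had one with CR10, without HBE1. DESeq2 called 0 genes in each. These counts are also below a fraction of 0.05 of the genes tested, so not passing is weak evidence of equal levels here too. Over the alternatives 0 genes were called, and the lowest edgeR adjusted p of HBE1 was 0.441, with CR10. By number the shares were 75.3%, 85.9% and 74.0% for CR4 and 76.0%, 90.9% and 82.5% for CR10.

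Against untransduced cells every lentiviral group held less HBE1. KRAB_no_gRNA held 75.8% (62.2 to 92.3%), which did not pass (log2 fold change -0.40 ± 0.13, SE; edgeR adjusted p = 0.0694), beside 3.76% of genes called lower and 2.88% called higher. dCas9_CR4 held 59.5% (adjusted p = 0.0181, 2.07% of genes called lower and 2.17% higher) and dCas9_CR10 held 63.1% (adjusted p = 0.0174, 1.87% called lower and 1.62% higher), both by edgeR. These calls were lost when only the compared groups were fitted (adjusted p = 0.140 and 0.284) and without no_lentivirus library 3 or library 1 of the dCas9 group. KRAB_CR4 was 9.81-fold below untransduced cells and KRAB_CR10 7.11-fold (edgeR adjusted p = 3.63e-10 and 3.17e-09), beside 0.449% and 3.19% of genes called lower and 0.503% and 2.47% called higher. Over 17 comparisons HBE1 was called in 11 and had the smallest p of all genes tested in 9.

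Within the beta-globin cluster HBE1 fell further than the gamma-globin genes. HBG2 and HBG1 were 3.32-fold and 2.85-fold lower in KRAB_CR4 than in dCas9_CR4, and 2.23-fold and 2.03-fold lower in KRAB_CR10 than in dCas9_CR10, all passing in edgeR (adjusted p from 3.10e-05 to 0.0293). With CR10 both calls were lost when only KRAB_CR10 and dCas9_CR10 were fitted (edgeR adjusted p = 0.331 and 0.420) and when library 2 of either group or library 3 of KRAB_CR10 was left out, where HBE1 was the 1 gene called. The ratio of HBE1 counts to summed HBG1 and HBG2 counts was used to test the difference, since reads may be split between these near-identical copies. It was 0.122 ± 0.00762 in the 6 libraries with KRAB and a gRNA and 0.245 ± 0.0161 in the 6 dCas9 libraries (SD), 2.00-fold lower and with no overlap (0.112 to 0.134 against 0.228 to 0.275). The exact two-sided permutation p was 0.00216, the smallest these 6 against 6 libraries can give, and 0.00216 after Benjamini-Hochberg adjustment over 3 ratios. This test pools the gRNAs and leaves out the library numbers. An exact sign-flip test of the same-numbered differences gave an adjusted p of 0.03125, also the smallest it can give. By group the ratio was 0.120 ± 0.000529 in KRAB_CR10, 0.124 ± 0.0115 in KRAB_CR4, 0.236 ± 0.00738 in dCas9_CR4, 0.253 ± 0.0190 in dCas9_CR10, 0.260 ± 0.00919 in KRAB_no_gRNA and 0.380 ± 0.0519 in no_lentivirus (SD, n = 3). These are ratios of counts, not corrected for transcript length, and are compared only between groups.

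**Figure D4:**
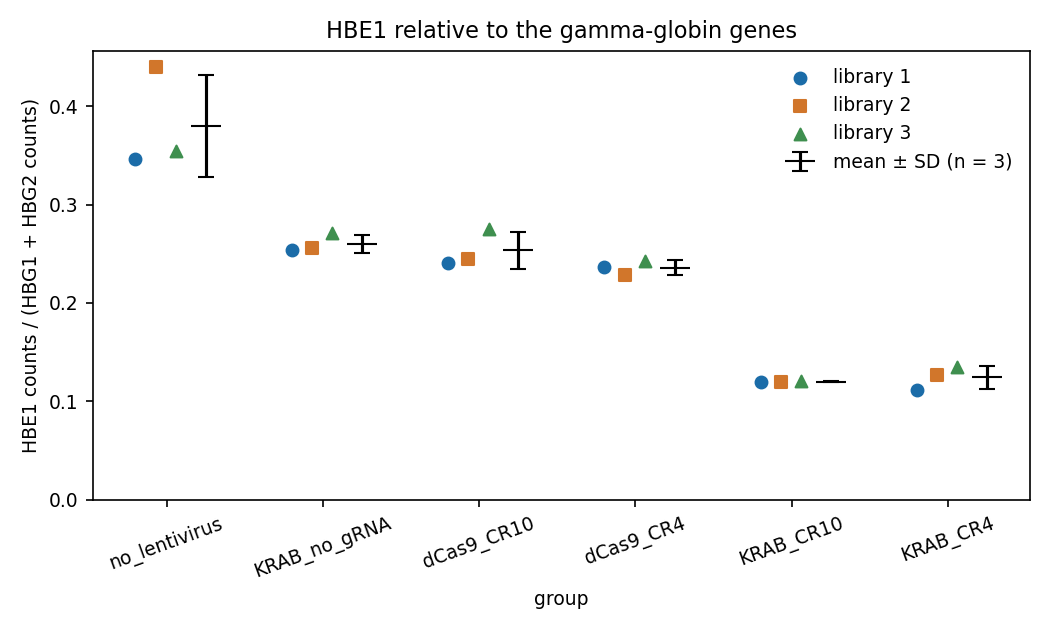
Ratio of HBE1 counts to the summed counts of HBG1 and HBG2 in each of the 18 libraries, by group, with the mean ± SD of 3 as bars. The 6 libraries with KRAB and a gRNA lie between 0.112 and 0.134, below the 0.228 to 0.275 of the 6 dCas9 libraries.

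The gamma-globin genes were also set beside HBE1 in untransduced cells. HBE1 was at 75.8% in KRAB_no_gRNA, and HBG2 and HBG1 read log2 fold changes of 0.13 and 0.11 (edgeR adjusted p = 0.639 and 0.696). No_lentivirus library 2 held 86.4% of the mean of libraries 1 and 3 for HBE1, and 69.9% and 67.5% for HBG2 and HBG1, so the ratio was highest there, at 0.440 against 0.346 and 0.354. This ratio was not tested between untransduced and lentiviral groups.

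The remaining cluster genes were low. HBBP1 read log2 fold changes of -2.26 and -1.47 between KRAB and dCas9 with CR4 and CR10, which did not pass (edgeR adjusted p = 0.403 and 1), and HBD read -1.48 and -1.02, also without passing. With the block on the lentiviral libraries both genes passed, HBBP1 at -2.27 and -1.47 (edgeR adjusted p = 9.70e-09 and 8.42e-06) and HBD at -1.45 and -0.99 (0.000164 and 0.0212). HBBP1 also passed in those 15 libraries without the block (edgeR adjusted p = 0.000237 and 0.0290), and HBD did not. In no_lentivirus libraries 1, 2 and 3, which share the estimate of the spread in the main fit, HBBP1 read 42.4, 5.77 and 30.8 CPM. DESeq2 called HBBP1 in KRAB_CR4 against dCas9_CR4 and against KRAB_no_gRNA and in the average, and did not call HBD. HBB never exceeded 40 counts. Of the 6 tested genes of the cluster, 3 were called lower in each comparison of KRAB and a gRNA with dCas9 or with KRAB_no_gRNA. Of the 6, 0 were called higher. The 3, HBE1, HBG2 and HBG1, make up all of the 0.0204% given above, which holds no gene outside the cluster. In the 15 lentiviral libraries 4 cluster genes were called lower without the block and 5 with it, against KRAB_no_gRNA and against dCas9 with the same gRNA. The totals with the block, given above, include these 5. The median log2 fold change of the 6 genes was -1.35 in the average of KRAB against dCas9, against -0.01 over all genes tested.

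No alpha-like gene on chromosome 16 passed in these comparisons. HBZ read log2 fold changes of 0.09 and 0.22 between KRAB and dCas9 with CR4 and CR10, HBA2 0.14 and 0.19, and HBA1 0.14 and 0.18. The low alpha-like gene HBQ1 averaged 9.21 CPM in KRAB_CR4 against 11.2 in dCas9_CR4, and 9.63 in KRAB_CR10 against 9.20 in dCas9_CR10. In all, 0 of 4 tested members passed. Over all genes 0.0204% were called lower and 0% higher in each comparison, so 0 of 4 is near that share. In KRAB_no_gRNA against no_lentivirus, where 2.88% of genes were called higher, HBQ1 was the 1 member called, higher at 11.1 against 6.25 CPM. That call was kept in 9 of 15 alternatives and lost when only these groups were fitted. The ratio of HBE1 to HBZ counts was 0.257 ± 0.0648 with KRAB and a gRNA and 1.48 ± 0.437 with dCas9, 5.73-fold lower. To summed HBA1 and HBA2 it was 0.0870 ± 0.0198 against 0.493 ± 0.0700, 5.76-fold lower (SD, n = 6 and 6). In each the exact two-sided permutation p was 0.00216, the smallest possible, and the sign-flip test of same-numbered differences gave an adjusted p of 0.03125.

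**Figure D5:**
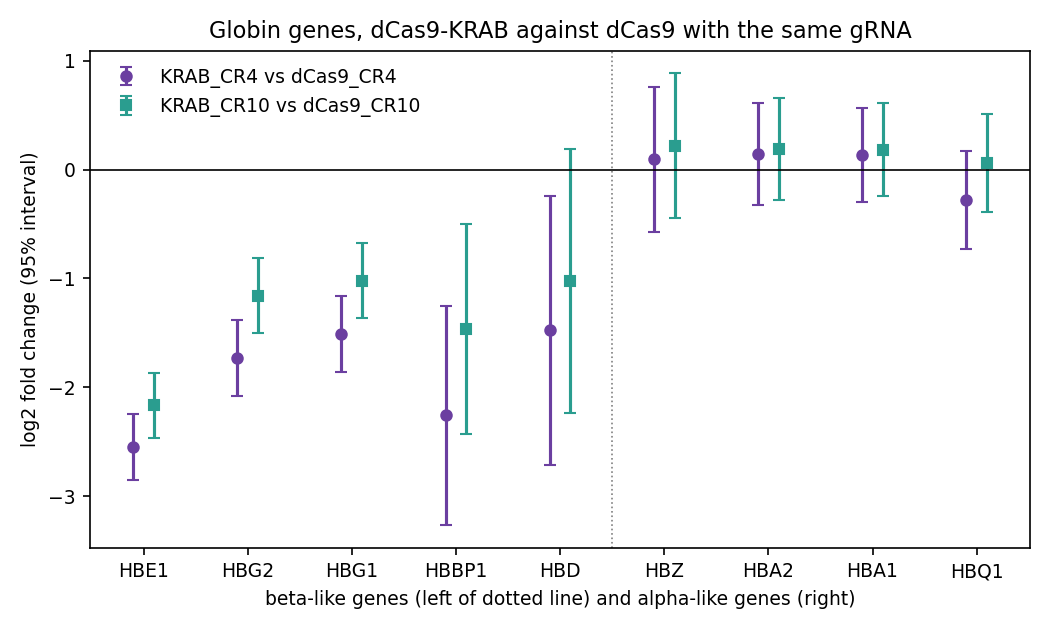
Log2 fold changes of the globin genes between KRAB and dCas9 with the same gRNA, with 95% intervals, for CR4 and CR10. HBE1 has the most negative value of the called genes, at -2.54 and -2.17, and HBZ, HBA2 and HBA1 lie between 0.09 and 0.22.

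Other genes that could share the HBE1 response were taken from lists. Among 16 tested neighbours on chromosome 11, 20 activators and looping factors of the locus, 17 repressors and switch regulators and 7 KRAB co-repressors, edgeR called 0 in the average of KRAB against dCas9. At an unadjusted p under 0.05 the count was 0 in each of these lists, and 0 were called by DESeq2 or with the block. Over all 14713 genes tested 186 had such a p, and 0.0204% were called lower and 0.0068% higher. At these shares lists of this size would hold few genes or none, so the zeros say little about their members. The median log2 fold changes were 0.00, 0.03, 0.01 and 0.05, against -0.01 over all genes. OR51B5, an olfactory receptor gene near the locus, read -0.07 (95% interval -0.43 to 0.28) and RRM1, a ribonucleotide reductase subunit, -0.01 (-0.21 to 0.18). GATA1, the main erythroid transcription factor, read 0.12 (-0.05 to 0.29), CHD4, a chromatin remodeller of the NuRD complex, 0.01 (-0.35 to 0.37), and TRIM28, the KRAB co-repressor, 0.03 (-0.20 to 0.27). In KRAB_no_gRNA against no_lentivirus, where HBE1 did not pass and 3.76% of genes were called lower and 2.88% higher, 5 of the 16 neighbours were called lower (ILK, STIM1, TRIM6, OR51B2 and OR51B4). Of the 20 activators 2 were called lower, GATA1 by a log2 fold change of -0.46 (edgeR adjusted p = 0.0287) and RAD21, a cohesin subunit, by -0.67 (edgeR adjusted p = 0.0297). Of the 17 repressors and switch regulators ZBTB7A, which represses gamma-globin, was called higher at 0.89 (edgeR adjusted p = 0.0202), as was NR2F2, and BACH1 was called lower, while 1 of the 7 co-repressors, CBX3, was called higher. Each of these calls was lost when only these groups were fitted, where edgeR called 0 genes, and without KRAB_no_gRNA library 1 or no_lentivirus library 2, where 27 and 41 genes were called in all. Of the 14 K562 and erythroid markers GATA1 and the haem enzyme ALAS2 were called lower and 0 higher, with a list median of -0.01. Of 4 tested lymphoid and myeloid markers PTPRC was called lower, at 73.1 against 223 CPM. The calls of ALAS2 and PTPRC were also lost with only these groups fitted. The part of these differences in the HBE1 level of the untransduced cells was not tested.

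HBE1 was compared between library numbers. In the 5 lentiviral groups the library numbered 3 held 80.8% to 103% of the mean of numbers 1 and 2 for HBE1, against 78.6% to 97.3% for HBG2, 60.2% to 74.5% for HBZ, 81.8% to 86.6% for HBA1 and 38.5% to 66.9% for HBD. The lowest HBE1 share was in KRAB_CR10, and the other 4 groups lay between 94.7% and 103%. In those 4 groups HBE1 was lowest in number 1 and highest in number 2, which the mean of numbers 1 and 2 hides. KRAB_CR10 had its highest HBE1 in number 1 and its lowest in number 3. HBZ, HBD, HBG2, HBG1, HBBP1, HBA1 and HBA2 were all lower in number 3 in every lentiviral group, and HBE1 was lower in 3 of 5.

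The genes most like HBE1 over the 18 libraries were its neighbours. By the Pearson correlation of log2(CPM + 1), over 12603 other genes, the highest were HBG2 (r = 0.970, and 0.988 over the 15 lentiviral libraries), HBG1 (0.966 and 0.988), HBBP1 (0.848 and 0.971), ACAD8 (0.757 and 0.812) and PAGE5 (0.757 and 0.783). The most opposite were PCSK1N (-0.873 and -0.835), CA1 (-0.856 and -0.835) and MS4A4A (-0.806 and -0.762). Their mean levels were low, at 1.11, 9.98 and 1.94 CPM, and PCSK1N and MS4A4A lay close to the mean of 1 CPM needed to be compared. PCSK1N reached that mean only through KRAB_CR4 and KRAB_CR10, at 2.38 and 2.48 CPM, against 0.0616 to 0.962 CPM in the other groups. Above r = 0.8 there were 3 genes and below -0.8 there were 3. HBZ, HBA1 and HBA2 were at -0.445, -0.440 and -0.423. After removing the group means the correlations were 0.831 for HBG2, 0.844 for HBG1, 0.518 for HBBP1, 0.656 for HBA1, -0.08 for ACAD8 and 0.697 for PAGE5. For the most opposite genes they were 0.111 for PCSK1N, -0.06 for CA1 and 0.334 for MS4A4A, so their opposition to HBE1 lay between groups. The libraries share groups, numbers and depth, and the correlations are given as a description.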

How the data were processed

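K562 RNA was selected with oligo-dT beads and tagged with Nextera, which does not mark the strand, per the labels' protocols, so reads of HBE1 and of any antisense transcript cannot be told apart. The authors deposited raw counts per RefSeq transcript in 1 file per library. Bowtie2, SAMtools, Picard, R 3.1.2, DESeq and hg19 are named in the submitters' processing notes without their roles. The counting tool is not given in the sources used here. All deposited counts were even, and 2 counts were taken as 1 fragment, which no label states.

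Of 40709 accessions, 39324 matched RefSeq and 517 GENCODE, and 868 kept their accession. Sums gave 24395 genes. After filterByExpr 14713 genes, with 99.97% of counts, were TMM-scaled and tested by the edgeR 4.0.16 quasi-likelihood test (R 4.3.3) with 6 group means over 18 libraries, Benjamini-Hochberg adjustment and a threshold of 0.05. Ratios were tested by exact permutation (SciPy 1.17.1). The fit was also run on simulated counts, which had a smaller spread than these data and no pairing by library number. DESeq2 1.42.0, other scalings, filters, subsets, a replicate block and leaving out each library were alternatives.

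Same-numbered lentiviral libraries deviated together (30 of 30 pairs with r over 0.1, from 0.150 to 0.845). Of the differently numbered lentiviral pairs 18 of 60 had such an r, from -0.706 to 0.567 over the 60. Numbers were therefore read as pairing the lentiviral libraries. With untransduced libraries 5 of 15 same-numbered pairs and 19 of 30 differently numbered pairs had an r over 0.1. Named genes were the globin genes, members of the neighbour, activator and repressor lists that passed or had the highest CPM, and the 5 highest and 3 lowest correlations with HBE1. The KRAB co-repressors and the cell markers lie outside this rule, and those named (TRIM28, CBX3, TFRC, ALAS2, PTPRC, ITGA2B, GP1BA, GP9, KRT18) were chosen after their values were seen. The gene, the lists and the tests were chosen with earlier results of these data known. The values of 1 marker gene are not reported here.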

Additional observations from a re-analysis of the deposited data

Results flagged for a closer look

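Among the 6 libraries with dCas9 and a gRNA, 1 library, dCas9_CR10 library 3, stood far from the rest in the ratio of HBE1 to summed HBG1 and HBG2 counts, at 0.275, the highest of the 6. The same library was also far above the rest in the ratio of HBE1 to HBZ counts, at 2.29. Chance alone sets a library apart by this measure in about 1 in 20 groups of like libraries. Several ratios and levels were looked at, these libraries differ in gRNA and number, and both flags share a library and its HBE1 count. The libraries numbered 3 also had the highest ratio of HBE1 to HBZ of their groups in KRAB_no_gRNA (2.77), dCas9_CR4 (1.54) and KRAB_CR4 (0.252), where HBZ was lower in number 3, and not in KRAB_CR10 (0.320 against 0.328 in library 2).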

How the results depend on the processing

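Of 320 values of HBE1 under the alternatives, 312 stayed on the same side of the threshold, 8 did not and 0 reversed, and all 45 alternative values of the ratios kept their direction and side. KRAB_no_gRNA against no_lentivirus passed with DESeq2 (-0.41, adjusted p = 0.0279) and with a replicate block on all 18 libraries (-0.40, edgeR adjusted p = 0.0346), where the numbers do not pair the untransduced libraries. dCas9_CR4 and dCas9_CR10 against no_lentivirus lost the call with only the compared groups (-0.75 and -0.67, edgeR adjusted p = 0.140 and 0.284), and leaving out each library in turn gave -0.84 to -0.69 and -0.76 to -0.57. The cause was not tested.

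With a replicate block on the 15 lentiviral libraries no HBE1 call changed, and the genes called rose from 3 to 6 and 7 for KRAB_CR4 and KRAB_CR10 against KRAB_no_gRNA, from 3 to 8 and 7 against dCas9, and from 4 to 14 in the average. Without the block on those libraries KRAB_CR10 against dCas9_CR10 gave 5. DESeq2 called 6 and 5 for KRAB_CR4 against KRAB_no_gRNA and dCas9_CR4 and 7 in the average, and libraries numbered 1 and 2 alone gave 5, 6 and 7. Leaving ribosomal RNA and other globin genes out gave 1 in each of the 4 comparisons and 2 in the average, since those genes were not tested. KRAB_CR10 against dCas9_CR10 called 1 with only the compared groups, and 1 to 3 leaving out each library, with 1 when number 2 of either group or number 3 of KRAB_CR10 was left out. KRAB_no_gRNA against no_lentivirus called 976 genes, 2008 with DESeq2, 2621 with the block, 0 with only these groups, and 27 (without KRAB_no_gRNA library 1) to 2447 (without no_lentivirus library 1).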
